A study of Homo sapiens with 4 samples.

Results

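The genes described here encode the proteins of the cytosolic ribosome. Members were the RefSeq GRCh38 protein-coding genes whose symbol is RPL or RPS with a number and an optional letter or L suffix, together with RPLP0, RPLP1, RPLP2 and RPSA. This rule gave 82 of the 20037 protein-coding genes on the chromosomes of the table. A deposited region of open chromatin belonged to a member if it overlapped the gene span extended by 2 kb on both sides, which gave 153 of 125986 regions. Kinases of the RPS6K family were left out, and so were RPL7L1, RPL22L1, RPL26L1 and the Y-linked copies of RPS4X.

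Open chromatin had been measured by ATAC-seq, in which the transposase Tn5 cuts and tags accessible DNA. The cells were A375, a human melanoma line in long-standing laboratory use. They were given octanoate at 1 mM, which is a fatty acid of medium chain length, or the solvent isopropanol as vehicle, for 48 h, and both groups were kept in the same serum-containing medium. Each group had 2 libraries, and the labels do not say whether these came from separate cultures, so p-values measure only the spread between these libraries. The authors' deposited table holds, for each region, the normalized read count averaged across the 4 libraries, a log2 fold change of octanoate over vehicle (log2 change below) with its standard error, a p-value and an adjusted p-value, and no value for a single library. Values per library and their spread can therefore not be shown, the depth of each library is unknown, and the error given with each change is the authors' standard error or the 95% interval computed from it. In the authors' deposited table an adjusted p had been computed for 11185 regions, those whose mean reached 63.8 normalized reads, here called tested regions. Their median log2 change in the authors' deposited table was 0.19, so changes are also given relative to this median. Of 7 melanocytic markers, 5 had a region at a gene end, led by MITF with a mean of 168 in the authors' deposited table, while MLANA and TYR had none there. The means of the other 4 were 15.7 (SOX10, region shared with POLR2F) to 34.2 (PMEL, shared with CDK2) in the authors' deposited table. Of 6 markers of other cell types, only CD3E had one, with a mean of 70.1 in the authors' deposited table. Regions elsewhere in or near the gene were listed for PTPRC (9), PECAM1 (7), CDH1 (4), EPCAM (2), TYR (4) and MLANA (1). ALB had 0.

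The cytosolic ribosome builds the proteins encoded in the nucleus. Its small subunit reads the messenger RNA and is made with RPS proteins. Its large subunit joins amino acids and is made with RPL proteins. Ribosomal protein genes are known as housekeeping genes of growing cells. Their messenger RNAs characteristically begin with a C followed by a run of pyrimidines, the 5′ terminal oligopyrimidine tract, through which the growth-sensing kinase mTOR controls their translation.

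Promoters of members with high or low changes among tested start regions, and with strong or weak signal, are shown first because the regions at gene starts carry the measurements below. RefSeq promoter windows (GRCh38.p14) of 250 bases before to 50 bases after the annotated start were at hand for 63 of the 82 members at the start of the gene span. Each line gives the last 100 bases before the start and the first 20 bases after it, 5′ to 3′ along the gene. Capitals mark the pyrimidine tract, defined as a C within 5 bases of the annotated start followed by at least 4 more pyrimidines.
RPSA (chr3:39406620-39406739, plus strand): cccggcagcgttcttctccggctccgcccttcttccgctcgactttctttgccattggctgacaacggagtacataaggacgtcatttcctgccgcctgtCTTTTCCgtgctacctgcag
RPS6 (chr9:19380217-19380336, minus strand): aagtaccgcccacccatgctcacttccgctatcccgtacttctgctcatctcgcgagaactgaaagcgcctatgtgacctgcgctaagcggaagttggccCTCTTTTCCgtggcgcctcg
RPS7 (chr2:3575160-3575279, plus strand): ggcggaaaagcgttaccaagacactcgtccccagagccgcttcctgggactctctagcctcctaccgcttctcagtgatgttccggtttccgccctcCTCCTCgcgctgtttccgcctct
RPS10 (chr6:34426050-34426169, minus strand): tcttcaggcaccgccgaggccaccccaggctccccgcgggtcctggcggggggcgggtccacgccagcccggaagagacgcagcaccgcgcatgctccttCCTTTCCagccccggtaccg
RPS12 (chr6:132814469-132814588, plus strand): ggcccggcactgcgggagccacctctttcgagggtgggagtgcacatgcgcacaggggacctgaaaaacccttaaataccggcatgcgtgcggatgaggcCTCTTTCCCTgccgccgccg
RPS19 (chr19:41860155-41860274, plus strand): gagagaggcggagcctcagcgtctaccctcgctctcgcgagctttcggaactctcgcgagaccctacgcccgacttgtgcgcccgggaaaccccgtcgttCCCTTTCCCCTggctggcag
RPS23 (chr5:82278335-82278454, minus strand): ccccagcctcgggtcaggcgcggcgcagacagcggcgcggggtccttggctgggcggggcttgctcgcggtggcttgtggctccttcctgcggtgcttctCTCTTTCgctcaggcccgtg
RPS25 (chr11:119018324-119018443, minus strand): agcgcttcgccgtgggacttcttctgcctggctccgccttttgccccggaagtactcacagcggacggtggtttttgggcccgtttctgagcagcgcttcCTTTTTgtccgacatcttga
RPL22 (chr1:6199576-6199695, minus strand): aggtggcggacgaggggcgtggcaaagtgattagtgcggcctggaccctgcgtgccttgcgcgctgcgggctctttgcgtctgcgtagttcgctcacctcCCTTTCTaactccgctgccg
The tract began exactly at the annotated first base in these promoters, except in RPS7, where it began 3 bases earlier. The next promoters held no such tract at the start of the gene span. RPL10 has another annotated start 312 bases further into the gene, where a tract of 12 pyrimidines was found, and both of its starts lie in the same open region.
RPL9 (chr4:39458903-39459022, minus strand): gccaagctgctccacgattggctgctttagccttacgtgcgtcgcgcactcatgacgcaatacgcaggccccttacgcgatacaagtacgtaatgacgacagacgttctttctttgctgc
RPS29 (chr14:49598691-49598810, minus strand): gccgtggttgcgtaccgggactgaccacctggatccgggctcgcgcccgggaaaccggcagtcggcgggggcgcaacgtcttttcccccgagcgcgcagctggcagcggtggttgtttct
RPL15 (chr3:23916445-23916564, plus strand): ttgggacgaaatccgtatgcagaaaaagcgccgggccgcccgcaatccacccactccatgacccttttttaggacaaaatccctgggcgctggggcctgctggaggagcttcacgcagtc
RPL10 (chrX:154397965-154398084, plus strand): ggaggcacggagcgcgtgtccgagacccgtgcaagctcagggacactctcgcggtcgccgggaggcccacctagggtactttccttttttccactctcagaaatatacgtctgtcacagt
RPL10, other start (chrX:154398277-154398396, plus strand): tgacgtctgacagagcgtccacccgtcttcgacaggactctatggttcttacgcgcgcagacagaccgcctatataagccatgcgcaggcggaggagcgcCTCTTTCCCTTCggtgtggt

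A tract at the annotated start was present in 42 of 63 member promoters, 66.7% (95% Wilson interval 54.4% to 77.1%). The same was found in 4.29% of 13757 promoters of other protein-coding genes and in 4.07% of all 35116 promoters of the same length. When the C could lie up to 5 bases away, the shares were 79.4% for members and 21.7% for other protein-coding genes. With every annotated start counted, 27.8% of 15778 other protein-coding genes had a tract near one. By the same count, 54 of 65 members with a start in the reference had a tract near one (83.1%). The other 11 were RPL6, RPL9, RPL10L, RPL15, RPL17, RPL27, RPS4X, RPS15, RPS26, RPS27L and RPS29, and no match here says only that these letters are not at the annotated starts. Tracts of members were 5 to 19 bases long, with a median of 8. Mitochondrial ribosomal protein genes, whose products work in the separate ribosome of mitochondria, had a tract at the start in 7.81% of 64 promoters, and translation factor genes in 26.5% of 49.

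Short motifs were searched on both strands of the whole windows. The ETS motif CCGGAAG was present in 34.9% of member promoters (interval 24.3% to 47.2%), against 14.5% of other protein-coding promoters and 10.3% of all promoters. It was present in 45.3% of mitochondrial ribosomal protein promoters and in 26.5% of translation factor promoters. Within the printed stretches it was found in RPS10 and RPS25. The YY1 motif AAGATGG was present in 12.7% of member promoters (interval 6.58% to 23.1%), against 6.67% of other protein-coding promoters and 5.84% of all. The mitochondrial set had AAGATGG in 34.4% and the translation factors in 8.16%. In 7 of the 8 members with AAGATGG the match began 12 to 28 bases after the start. A match after the start was present in 11.1% of member promoters, 3.21% of other protein-coding promoters and 25% of mitochondrial ribosomal protein promoters. In the 100 bases before the start 0 of 63 had it, which allows a share of up to 5.75% (Wilson), against 1.05% of other protein-coding promoters. The Sp1 motif GGGCGG (57.1% of members, 58.5% of other protein-coding genes, 45.0% of all promoters) and the NF-Y motif CCAAT (38.1%, 37.1% and 34.6%) are given for the same sets in that order. For the E-box CACGTG the shares were 4.76%, 8.97% and 7.26%, and for TATAAA 9.52%, 10.0% and 11.5%, in that order. The interval of CCGGAAG in members lay above the share of other protein-coding genes, and those of the other motifs held it. Among genes with a start region alone, GGGCGG was present in 56.5% of 62 members (interval 44.1% to 68.1%) and in 70.4% of 10084 other genes. In the same genes, TATAAA was present in the whole window in 8.06% of members (interval 3.49% to 17.5%) and in 6.09% of other genes. In the 100 bases before the start alone, its shares were 8.06% (same interval) and 2.93%. The whole window held CCGGAAG in 35.5% and 18.7%, and AAGATGG in 12.9% and 7.31%. For CCAAT these shares were 37.1% and 37.3%, and for CACGTG 4.84% and 10.1%. None of these motifs contains another, and a match is a description of letters, not of binding.

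**Figure D1:**
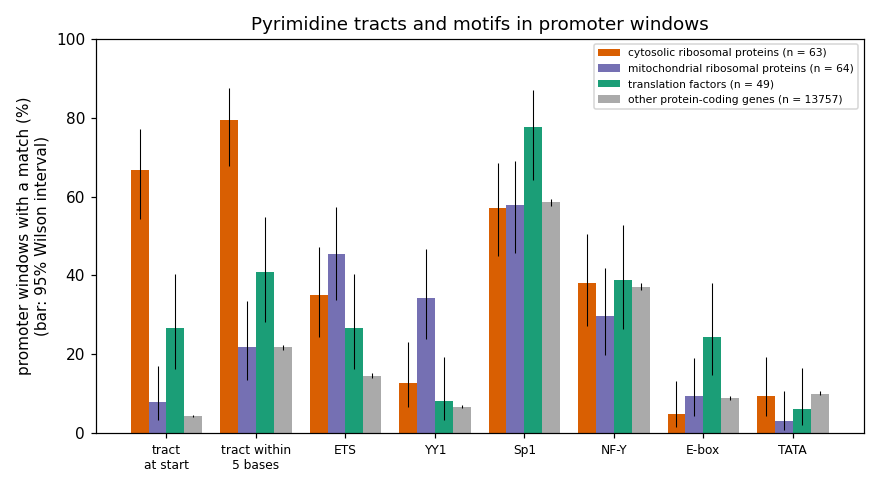
Percent of 300-base promoter windows with a pyrimidine tract at or within 5 bases of the annotated start, or with each of 6 motifs on either strand, in cytosolic ribosomal protein genes (n = 63), mitochondrial ribosomal protein genes (n = 64), translation factor genes (n = 49) and other protein-coding genes (n = 13757). Error bars are 95% Wilson intervals, which cover counting error only, and the tract at the start stands at 66.7% in the cytosolic set against 4.29% in other protein-coding genes.

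Nearly all members were open at their start. The start region of a gene is the deposited region over the first base of its span in the direction of transcription, or failing that the strongest region within 1 kb. Of the 65 members whose strand was at hand, 64 had a start region, and in all 64 the region covered the start base itself. Among 15778 other protein-coding genes with a strand, 71.9% had one. Other genes of protein synthesis were open at the start at similar shares, with 68 of 69 mitochondrial ribosomal protein genes, 22 of 24 ribosome assembly genes and 48 of 52 translation factor genes. The exception was RPL10L, an intronless copy of RPL10 used in the testis, which had no region within 2 kb of its span. Strand was not at hand for 17 members, among them RPL5 and RPS2, and their regions are counted with all member regions but not as start regions. Every one of these 17 had at least 1 region.

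Start regions of members were of middling strength. Their median mean signal in the authors' deposited table was 55.8 normalized reads (middle 50%, 43.0 to 79.7), against 65.0 (33.4 to 108) for 10119 start regions of other protein-coding genes and 12.2 for all regions. Members' start regions were 476 to 2425 bp wide with a median of 1006 bp, against 1188 bp for other starts. Per kb of region, so that genes can be compared, the medians in the authors' deposited table were 55.2 and 51.9 normalized reads. On this scale the order was led by RPSA (137), RPS6 (131) and RPL14 (117) and closed by RPL4 (28.6), RPL36 (27.9) and RPL19 (25.9), in normalized reads per kb of the authors' deposited table. RPSA encodes a protein of the small subunit that is also known as a laminin receptor precursor, and RPS6 is the small-subunit protein phosphorylated by S6 kinases downstream of mTOR. Of the 64 start regions 28 were tested, 43.8%, against 50.9% of other start regions.

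**Figure D2:**
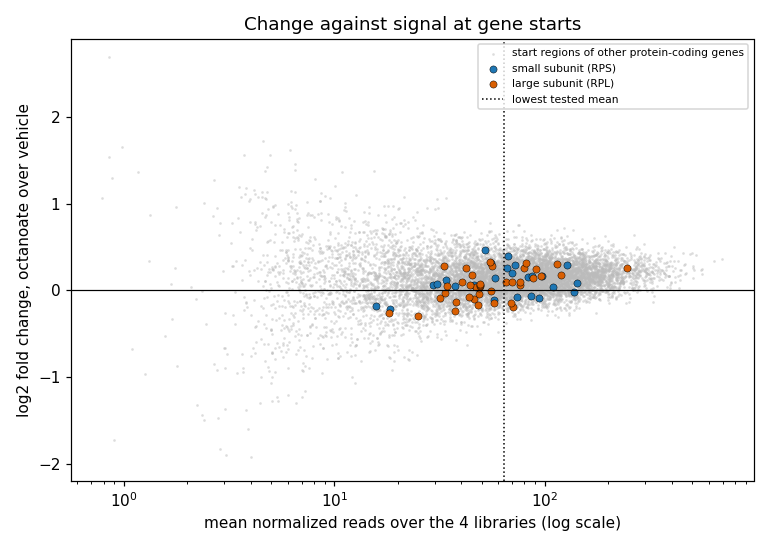
Each point is a region at the start of 1 or more protein-coding genes, with the mean normalized reads over the 4 libraries on a log axis and the log2 change of octanoate over vehicle on the linear axis, both from the authors' deposited table. The 64 ribosomal protein genes (25 RPS and 39 RPL) lie inside the cloud of other genes between -0.30 and 0.47, and 28 of them lie at or above the lowest tested mean of 63.8.

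No region of a ribosomal protein gene changed past the threshold. Of the 50 tested member regions in the authors' deposited table, 0 passed an adjusted p of 0.05 (DESeq2 with Benjamini-Hochberg adjustment), where 1.02% of all tested regions did, a share that would give 0.51 regions in 50. At an unadjusted p under 0.05, 3 of the 50 were higher with octanoate, against 14.8% of all tested regions (7.41 in 50), and 0 were lower, against 0.107%, in the authors' deposited table. Of these 3, 2 lay away from the gene start, and the third, of RPL39L, lay at a gene end of unknown strand. Among the 28 tested start regions the counts were 0 at an adjusted p under 0.05 and 0 in either direction at an unadjusted p under 0.05 (DESeq2), while tested start regions of other genes in the authors' deposited table had 0.291% past the adjusted threshold, 9.13% higher and 0% lower at the unadjusted one. After the tested median was subtracted, 0 of 50 member regions had an adjusted p under 0.05 (background 0.0536%), and 0 were higher (3.16%) and 0 lower (1.01%) at an unadjusted p under 0.05. Among the 28 centred start regions the counts were likewise 0, 0 and 0, on backgrounds of 0% past the adjusted threshold, 0.757% higher and 0.641% lower in start regions of other genes. In a bulk measurement a change in the share of cells with an open region and a change in openness per cell cannot be told apart.

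The intervals of the start regions show which changes remain possible. In the authors' deposited table the log2 changes of the 64 ran from -0.30 at RPL4 to 0.47 at RPS9, with a median of 0.067 and a middle 50% from -0.065 to 0.18. The 95% interval held 0 in 64 of 64, and it also held the tested median in 64 of 64. In 59 of 64 the interval lay inside a doubling and a halving. Of the 10119 other start regions the interval held 0 in 9618, held the tested median in 10023 and lay inside a doubling and a halving in 7932. The members' SD of 0.18 was below the median standard error of a single start region, 0.28, in the authors' deposited table. RPS9 and RPL4, the ends of the order, differed by 0.77 with an interval of -0.22 to 1.76 if their errors are taken as independent, so neighbours within the order are not separated by these data.

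**Figure D3:**
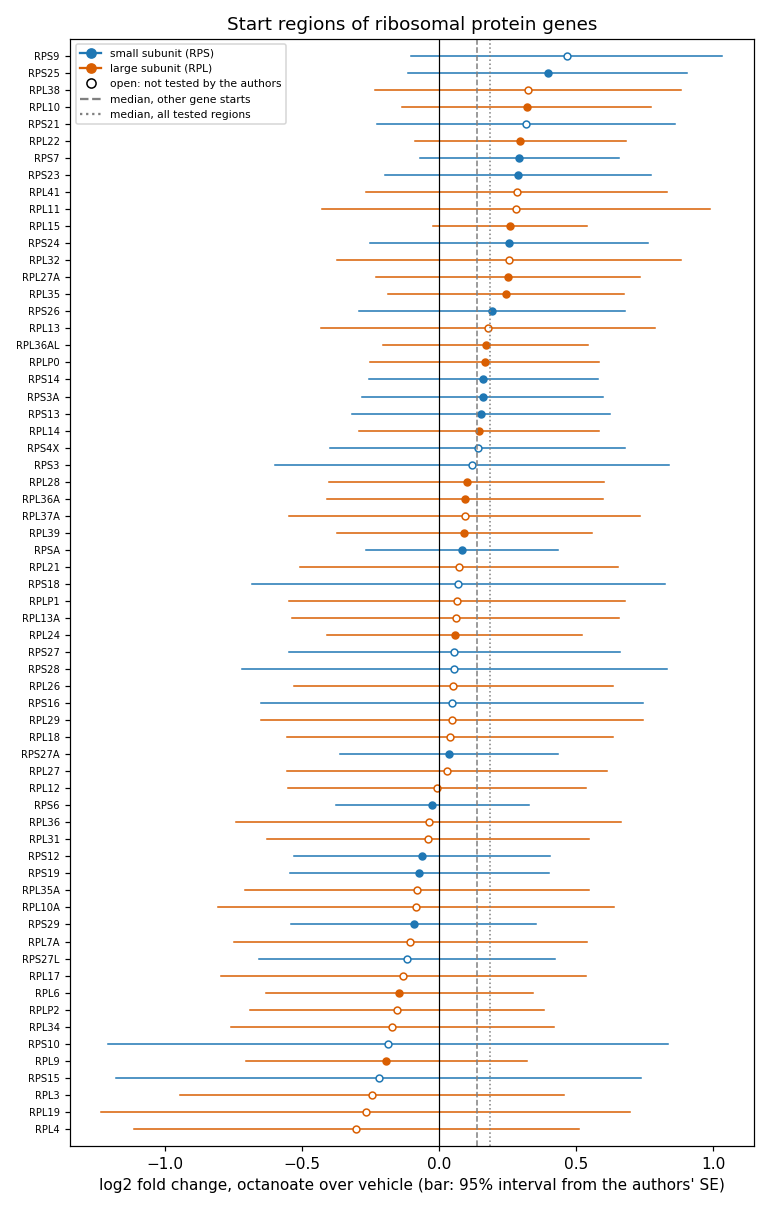
Log2 fold change of octanoate over vehicle at the start region of each of 64 ribosomal protein genes, ordered by value, with 95% intervals from the authors' standard errors; filled points are tested regions, open points regions without an adjusted p. Every interval crosses 0, and the dashed and dotted lines mark the medians of start regions of other protein-coding genes (0.14) and of all tested regions (0.19).

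The members' median of 0.067 was compared with that of other gene starts. In the authors' deposited table the 10119 start regions of other protein-coding genes had a median log2 change of 0.14, so the difference was -0.070. It was -0.0044 among tested regions alone, where members had 0.16 and other starts 0.16 in the authors' deposited table. Among the untested, weaker start regions the medians in the authors' deposited table were 0.046 for 36 members and 0.10 for 4970 others. Of the 64 members 40 lay below the median of other starts, and 43 of 64 were above 0, against 76.4% of other starts. With no value per library the spread of this difference between replicates was not measured and no test of it was possible. Relative to the tested median, the members' start regions had a median of -0.12 and other starts -0.050.

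The small-subunit genes came close to the large-subunit genes. In the authors' deposited table the 25 RPS start regions had a median log2 change of 0.084, and the 39 RPL and RPLP start regions had 0.061. Restricted to the 14 tested regions on each side, the medians in the authors' deposited table were 0.16 and 0.16. Of the small-subunit start regions 14 of 25 were tested and of the large-subunit ones 14 of 39, with median signals of 66.9 and 49.2 normalized reads in the authors' deposited table.

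Among small-subunit genes, RPS25 had the highest log2 change of a tested start region, 0.40 with a standard error of 0.26 (adjusted p 0.478, DESeq2) in the authors' deposited table. The region lies on chromosome 11 from 119018159 to 119018977, and the mean levels implied by the deposited mean and fold change were 57.8 for vehicle and 76.0 for octanoate. It also covers the start of TRAPPC4. RPS7 (chromosome 2, 3574854 to 3576152), whose mutations are known in Diamond-Blackfan anaemia, had 0.29 with a standard error of 0.19 and a mean of 127 in the authors' deposited table. RPS23, a protein of the decoding centre, had 0.29 with a standard error of 0.25 in the authors' deposited table (chromosome 5, 82277889 to 82279229). The lowest tested small-subunit start regions were those of RPS29, at -0.093 (standard error 0.23), RPS19, at -0.073 (0.24), and RPS12, at -0.063 (0.24), in the authors' deposited table. Untested, weaker start regions reached further, with 0.47 at RPS9 and -0.22 at RPS15 in the authors' deposited table. RPS19 is the gene most often mutated in Diamond-Blackfan anaemia. The 95% intervals of all these genes held 0, and those of the highest and lowest overlapped.

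The strongest small-subunit starts had among the smallest errors. RPS6 (chromosome 9, 19379783 to 19380830) had implied levels of 138 normalized reads with vehicle and 136 with octanoate, a log2 change of -0.025 in the authors' deposited table with an interval of -0.38 to 0.33. RPSA (chromosome 3, 39406223 to 39407258) had implied levels of 138 and 146 and a log2 change of 0.084, interval -0.27 to 0.43, in the authors' deposited table. RPS27A, which encodes ubiquitin fused to a ribosomal protein, had 0.036 (standard error 0.20) in the authors' deposited table. RPS10 had the weakest start region, with a mean of 15.8 normalized reads and a log2 change of -0.19 (standard error 0.52) in the authors' deposited table, an error so wide that a halving and a rise of 0.84 both lie inside the interval.

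Among large-subunit genes, RPL10 had a log2 change of 0.32 with a standard error of 0.23 in the authors' deposited table (chromosome X, 154397340 to 154399056). RPL22 had 0.30 (standard error 0.20, chromosome 1, 6199011 to 6200165) in the authors' deposited table. RPL15 had the widest and strongest member start region, 2425 bp with a mean of 246 normalized reads, and a log2 change of 0.26 (standard error 0.14, unadjusted p 0.0709, adjusted p 0.382, DESeq2) in the authors' deposited table. Its implied levels were 224 with vehicle and 268 with octanoate, on chromosome 3 from 23915452 to 23917876. The lowest tested values were -0.19 at RPL9 (standard error 0.26) and -0.15 at RPL6 (standard error 0.25) in the authors' deposited table. The RPL9 region (chromosome 4, 39458388 to 39460018) also covers the start of LIAS, the lipoic acid synthase gene. The RPL6 region at the end of the gene span overlaps PTPN11, while a region at another annotated RPL6 start had a mean of 43.3 and a log2 change of 0.039 (standard error 0.32) in the authors' deposited table.

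The stalk proteins RPLP0, RPLP1 and RPLP2 recruit elongation factors to the large subunit. Their start regions had log2 changes of 0.17 (RPLP0, standard error 0.21), 0.065 (RPLP1, 0.31) and -0.15 (RPLP2, 0.27) in the authors' deposited table, on means of 95.6, 44.0 and 57.4 normalized reads. RPL5 and RPL11 form the 5S particle, which is known to bind MDM2 when ribosome assembly is disturbed. The RPL11 start region had 0.28 (standard error 0.36), and a region at an end of RPL5, whose strand was not at hand, had -0.090 (standard error 0.25), in the authors' deposited table. Of 9 genes listed for Diamond-Blackfan anaemia, 7 had a start region with a median of 0.19 and a range from -0.19 at RPS10 to 0.29 at RPS7 in the authors' deposited table. Of their 6 tested regions 0 passed at an adjusted or an unadjusted p under 0.05 (DESeq2), on backgrounds of 1.02% and, for higher regions, 14.8%.

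Paralogs of restricted or lower use were read one by one. RPL36AL and RPS27L, which are widely expressed, had start regions with means of 120 and 57.1 normalized reads and log2 changes of 0.17 and -0.12 in the authors' deposited table. The RPL36AL region also covers the start of MGAT2. RPL3L, the muscle paralog of RPL3, had no region over its span. The 1 region within 2 kb of it covers the start of MSRB1, with a mean of 35.0 and a log2 change of 0.079 (standard error 0.35) in the authors' deposited table. RPL39L, a copy of RPL39 best known from testis, had a region at an end of its span (chromosome 3, 187139151 to 187140053) with a mean of 81.5, a log2 change of 0.53 (standard error 0.23), an unadjusted p of 0.0214 and an adjusted p of 0.235 (DESeq2) in the authors' deposited table. Its levels implied by these values were 66.7 with vehicle and 96.3 with octanoate. After centring its unadjusted p was 0.136. A weaker region inside the RPL39L span (187136978 to 187137285) had a mean of 6.69 and was not tested, and its log2 change was 1.90 (standard error 0.88, unadjusted p 0.0301, DESeq2) in the authors' deposited table.

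The other 2 tested member regions at an unadjusted p under 0.05 lay away from the starts. These regions and that of RPL39L were singled out after their values were seen. A region centred 8.42 kb downstream of the RPL38 start (chromosome 17, 74210222 to 74213969) had a log2 change of 0.44 (standard error 0.15, unadjusted p 0.00384, adjusted p 0.111, DESeq2) in the authors' deposited table. It covers the start of TTYH2, so it is not a region of RPL38 alone. A region centred 8.38 kb downstream of the RPS9 start and beyond the end of the gene (chromosome 19, 54208150 to 54210330) had 0.54 (standard error 0.23, adjusted p 0.221, DESeq2) in the authors' deposited table. Centred on the tested median, these regions of RPL38 and RPS9 had unadjusted p-values of 0.0961 and 0.124.

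Members with a strand held 61 further regions away from their starts. These were weaker, with a median mean of 10.2 normalized reads against 55.8 at the starts in the authors' deposited table, and 9 of 61 were tested. Their median log2 change in the authors' deposited table was 0.14, and it was 0.15 in the 9 tested regions. Of these 9, at least 5 cover the start of another protein-coding gene. In 40 members that had both kinds, the start region was the strongest region in 29 and had the lower log2 change in 24. Standard errors in the authors' deposited table were wider away from starts, with a median of 0.66 against 0.28 at starts.

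**Figure D4:**
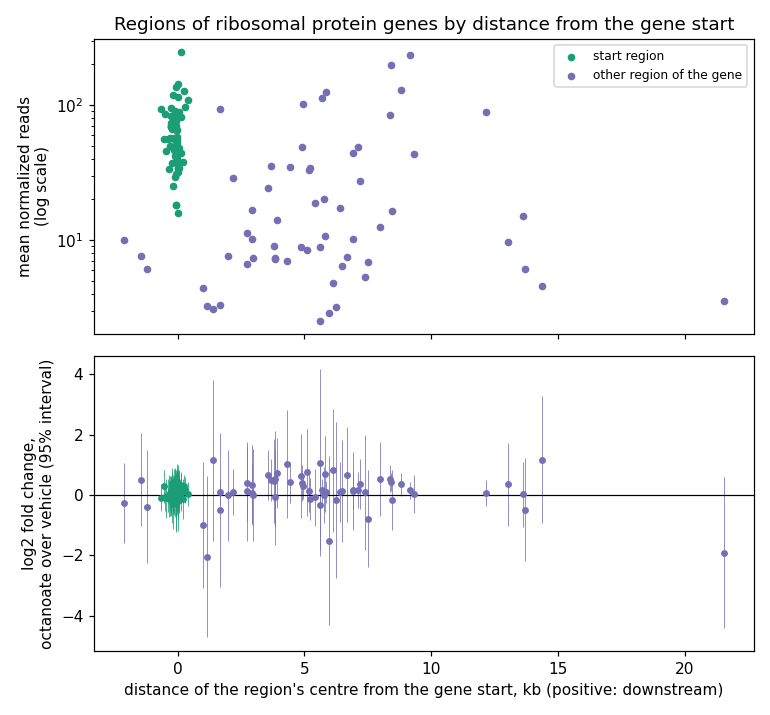
Regions of ribosomal protein genes by the distance of their centre from the gene start in kb, positive downstream; the upper panel gives mean normalized reads on a log axis, the lower panel the log2 change of octanoate over vehicle with 95% intervals, both from the authors' deposited table. The 64 start regions cluster at the start with a median mean of 55.8, and the 61 others are mostly weaker (median 10.2) with wider intervals.

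Members were also divided by their surroundings. Of the 64 start regions at least 15 also covered the start of another protein-coding gene, as at RPL36AL (MGAT2), RPS29 (LRR1), RPLP2 (PIDD1), RPS27A (CLHC1) and RPL4 (ZWILCH). Starts could be counted only for the 15843 of 20037 protein-coding genes whose strand was at hand. The median log2 change of the 15 regions was 0.055, against 0.084 for the other 49, in the authors' deposited table. The 49 may hold further shared starts that could not be counted. Of the 82 members 29 had at least 1 of 60 annotated small nucleolar RNAs inside the span, as RPL4 and RPL13A do. The 19 of these with a start region had a median of 0.084 and the other 45 had 0.057 in the authors' deposited table. Members lie on 21 chromosomes, 12 of them on chromosome 19. The 9 start regions on chromosome 19 had a median log2 change of 0.047, and 672 other start regions there had 0.15, in the authors' deposited table. The 10 start regions within 5 Mb of a chromosome's first base or its last listed gene or region had 0.14 and the other 54 had 0.063, in the authors' deposited table. Promoters with a tract at the start (42 members with a start region) had 0.078 and those without (20) had 0.045, in the authors' deposited table. With the tract allowed within 5 bases the order was reversed, with 0.071 (50 members) and 0.088 (12). In other protein-coding genes the medians with and without a tract at the start were 0.11 and 0.14 in the authors' deposited table. Each of these pairs of medians is a description, and no difference between them was tested.

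Other genes of protein synthesis were read from lists of known members, with 0 tested regions past the adjusted threshold in any list (DESeq2), on the background of 1.02%. For the counts that follow, 14.8% of all tested regions were higher and 0.107% lower at an unadjusted p under 0.05 in the authors' deposited table. The 77 mitochondrial ribosomal protein genes had 67 start regions with a median log2 change of 0.12, and 3 of their 33 tested regions were higher at an unadjusted p under 0.05 and 0 lower, in the authors' deposited table. Their tested start regions ran from -0.10 at MRPS30 to 0.44 at MRPS17 in the authors' deposited table. Ribosome assembly genes (26 genes, 22 start regions) had a median of 0.17, with 2 of 12 tested regions higher at an unadjusted p under 0.05 and 0 lower in the authors' deposited table. Among their tested start regions the ends were POLR1A, the largest subunit of RNA polymerase I, at 0.044 and NPM1, the nucleolar protein nucleophosmin, at 0.41 (standard error 0.15, adjusted p 0.133, DESeq2) in the authors' deposited table. Translation factor genes (63 genes, 48 start regions) had 0.11, with 1 of 38 tested regions higher at an unadjusted p under 0.05 and 0 lower, in the authors' deposited table. Tested start regions alone ran from -0.21 at EEF1G to 0.39 at EIF4G3, and all 48 from -1.07 to 0.59, in the authors' deposited table.

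Growth signalling genes upstream of ribosomal protein synthesis, 16 genes that included inhibitors such as TSC1 and TSC2, had the highest median of these lists. In the authors' deposited table their 12 start regions had a median of 0.23, and 5 of their 10 tested regions were higher at an unadjusted p under 0.05 and 0 lower, on the background of 14.8% higher. Their tested start regions ran from 0.33 at RRAGC, a subunit of the Rag complex that signals amino acids to mTOR, to 0.57 at MTOR itself (standard error 0.20, adjusted p 0.121, DESeq2) in the authors' deposited table. Only 4 of the 12 were tested, and the 8 untested ones had a median of 0.13 and reached down to -0.15 in the authors' deposited table. After centring 0 of these 10 tested regions had an unadjusted p under 0.05, on a background of 3.16% higher and 1.01% lower. Ribosome components named otherwise were FAU, with a start region at -0.035 (standard error 0.33), and RACK1, at 0.18 (standard error 0.26), in the authors' deposited table. The FAU region is also the start region of MRPL49, so it is counted in the mitochondrial list too. No difference between any list and the ribosomal protein genes was tested.

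**Figure D5:**
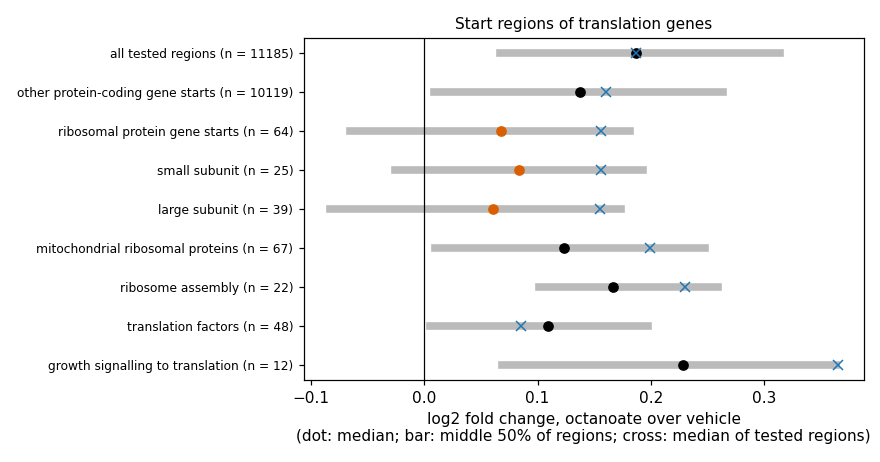
Log2 fold change of octanoate over vehicle at start regions, by gene list; dots are medians, bars the middle 50% of regions, crosses the medians of tested regions only, all from the authors' deposited table. Ribosomal protein genes have a median of 0.067 over all 64 start regions and 0.16 over the 28 tested ones, against 0.14 and 0.16 for other protein-coding genes.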

How the data were processed

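The deposited file is 1 table of the comparison of octanoate with vehicle over 4 libraries, made with DESeq2 per the file headers. Per the submitters' processing notes the build was hg38 and Trim Galore, cutadapt, FastQC, Bowtie2, Picard, MACS2, featureCounts, DESeq2 and bedtools 2.29.1 were used; their settings, the merging of regions, the scaling and any correction of read ends for Tn5 are not given in the sources used here. How reads shared with pseudogenes were placed is likewise not given. Per the file headers, the signal column is a mean normalized read count, and the log2 columns hold the fold change and its standard error. A Wald statistic, the change divided by its error, fills the deposited score column. The deposited p-value is two-sided. The deposited adjusted p-value equalled Benjamini-Hochberg adjustment over the 11185 tested regions and was listed as 1 elsewhere, which was treated as not tested.

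Gene spans and names came from RefSeq (GRCh38.p14). Strand and promoters came from the RefSeq promoter windows, which held 65 of the 82 members. Intervals (95%) are the fold change plus or minus the normal quantile times the deposited standard error. Implied group levels split the deposited mean by the fold change. Centred values subtract the tested median. Wilson intervals cover counting error only. Named genes were those with the 5 highest and 5 lowest tested start regions, the 3 highest and the lowest mean, and a fixed set. Members and lists were chosen with earlier results of these data known. No value exists for a single library, so replicates were not compared. Some genes are not reported here by name. Alternatives were other thresholds, adjustments, spans, start rules and centring. Scripts (Python 3.11.15, pandas 2.3.3, scipy 1.17.1) were tested on simulated data.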

Additional observations from a re-analysis of the deposited data

How the results depend on the processing

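No paired analysis was possible because single libraries have no values here, and for that reason no replicate was left out and no other scaling or count test was run. The count of member regions past the adjusted threshold was 0 as deposited and after centring, and stayed 0 at an adjusted p of 0.1 or 0.01, with adjustment over all regions, with spans not extended or extended by 10 kb, and with the L1 and Y paralogs added. At an unadjusted p under 0.05, 3 higher regions became 0 after centring, which subtracts 0.19 from each change. The median of member start regions, 0.067, ran from 0.063 without genes near chromosome ends to 0.16 in tested regions over 10 settings other than centring, and was -0.12 after centring. The difference from other starts, -0.070, ran from -0.070 to -0.0044 over 9 such settings. Settings with any annotated start, with genes of unknown strand, and without regions covering another start were chosen after seeing the data. Within the 100 bases before the start, motif shares of members were 19.05% for ETS, 0% for YY1, 38.1% for Sp1, 22.2% for NF-Y and 1.59% for E-box, in a window shorter than the whole, while TATA kept 9.52%. In other protein-coding genes these shares were 8.29%, 1.05%, 42.9%, 21.5%, 4.25% and, for TATA, 5.79%.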

Other observations

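Ribosomal protein genes have many processed pseudogenes, copies made from their messenger RNA and inserted elsewhere without the promoter. RefSeq lists 1966 pseudogenes named after 77 of the 82 members, led by RPL21 with 137. Of these 1966, 61 (3.10%) overlapped a deposited region, while 80 of the 82 members did so over their own span. Member spans include the gene start, and no such shares are given here for other pseudogenes or other genes. Whether the contrast is particular to ribosomal protein genes was therefore not tested. The 72 regions over pseudogenes had a median mean of 15.4 normalized reads and a median log2 change of 0.31 in the authors' deposited table, and the 116 regions over member spans had 48.5 and 0.089. All regions of the table had a median mean of 12.2 and a median log2 change of 0.23 in the authors' deposited table. Of the 72, 44 lay over 1 kb from any protein-coding gene, and their median log2 change was 0.32 in the authors' deposited table. Of the 72, 5 were tested, against 43 of the 116, and whether reads were shared between a gene and its copies was not tested.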
